A study of Mus musculus with 25 samples.

Results

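Transcripts of 9 lymphocyte marker genes were followed in bulk liver RNA: the B cell genes Cd79a, Cd79b and Ms4a1, the T cell genes Cd3e, Cd3g and Cd8a, the natural killer (NK) and cytotoxic cell genes Nkg7 and Gzma, and Ptprc, which marks nearly all leukocytes. They were picked by symbol and are 9 of the 17838 genes with a finite value above 0 in at least 1 liver. Liver was taken from 25 C57BL/6 mice after 5 weeks of parabiosis, a surgical union in which the joined mice come to share blood. There were 5 livers in each of 5 groups. O (Yg Het) livers came from wild-type (WT) mice 21 months old joined to young mice with a single working copy of Manf, O (YgWT) livers from WT mice of that age joined to young WT mice, and O-O livers from WT mice of that age joined to another old mouse. Yg Het livers came from mice 5 months old, heterozygous for Manf and joined to an old WT mouse, and Yg WT livers from WT mice 5 months old joined to an old WT mouse. Every animal was thus joined, and no unjoined mouse is among the 25 livers. The labels do not tell which animals made up each pair, whether blood was flushed from the livers, or which kind of Manf allele was used.

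B cells carry an antigen receptor whose signal passes through the paired chains that Cd79a and Cd79b encode, and Ms4a1 encodes CD20, a membrane protein of mature B cells. T cells signal through the CD3 complex, of which Cd3e and Cd3g encode chains, and Cd8a encodes a chain of the co-receptor of cytotoxic T cells. NK cells and cytotoxic T cells kill target cells with granules that hold the protease granzyme A (Gzma) and the membrane protein that Nkg7 encodes. Ptprc encodes CD45, the tyrosine phosphatase of the leukocyte surface that tunes antigen receptor signalling. In mouse liver such cells patrol the sinusoids or gather around portal vessels, next to far more numerous hepatocytes. In bulk RNA, fewer cells of a type and less RNA per cell cannot be told apart, and cells of the tissue cannot be told apart from cells of the blood in it.

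All 9 genes are protein-coding in the GENCODE M21 annotation of mm10. Cd79a lies at chr7:24897381-24902197 on the plus strand, Cd79b at chr11:106311341-106314762 on the minus strand and Ms4a1 at chr19:11249675-11266241 on the minus strand. Cd3e (chr9:44998740-45009627) and Cd3g (chr9:44969572-44980431) lie close together on the minus strand of chromosome 9, and Cd8a lies at chr6:71373427-71379173 on the plus strand. Nkg7 lies at chr7:43437073-43438249 on the plus strand, Gzma at chr13:113093825-113100981 on the minus strand and Ptprc at chr1:138062861-138175708 on the minus strand. The gene models ran from 878 bases (Gzma) to 18313 bases (Ptprc), so that 1 read weighed 0.0465 RPKM (reads divided by the kilobases of the gene model and by library depth) for Gzma in Yg WT liver 3 and 0.00228 RPKM for Ptprc in O-O liver 4.

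The stretches just before the start of Cd79a, both CD3 genes, Nkg7 and Gzma are given to show the sequence from which a B cell, a T cell and a cytotoxic transcript begin. They are RefSeq sequences of GRCm38.p6 (the assembly of mm10), 5′ to 3′ on the strand of the gene, and end where the annotated exons begin. Windows were available for 7 of the 9 members, and the 250 bases before each RefSeq start were searched on both strands for 5 motifs of lymphoid transcription factors. These were ETS (AGGAAG), EBF (CCCNNGGG), RUNX (ACCACA), the E-box bound by E proteins (CAGGTG) and the octamer (ATGCAAAT). Capitals mark the matches that fall in the stretches. Cd79a is from chr7:24897247-24897380 on the plus strand, Cd3e from chr9:45009628-45009861 and Cd3g from chr9:44980432-44980681 on the minus strand, Nkg7 from chr7:43436888-43437072 on the plus strand and Gzma from chr13:113100982-113101231 on the minus strand.
Cd79a: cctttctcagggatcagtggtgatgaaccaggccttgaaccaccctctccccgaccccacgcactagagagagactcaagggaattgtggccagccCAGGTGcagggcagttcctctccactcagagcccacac
Cd3e: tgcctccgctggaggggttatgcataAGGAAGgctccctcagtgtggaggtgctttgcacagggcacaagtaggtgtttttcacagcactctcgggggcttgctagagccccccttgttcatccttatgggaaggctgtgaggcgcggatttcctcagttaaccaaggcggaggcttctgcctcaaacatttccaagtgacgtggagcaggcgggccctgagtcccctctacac
Cd3g: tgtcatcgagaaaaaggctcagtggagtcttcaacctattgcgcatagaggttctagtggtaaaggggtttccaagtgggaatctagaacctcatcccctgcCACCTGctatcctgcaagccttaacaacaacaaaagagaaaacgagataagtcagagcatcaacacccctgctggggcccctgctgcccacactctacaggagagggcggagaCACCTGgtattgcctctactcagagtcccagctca
Nkg7: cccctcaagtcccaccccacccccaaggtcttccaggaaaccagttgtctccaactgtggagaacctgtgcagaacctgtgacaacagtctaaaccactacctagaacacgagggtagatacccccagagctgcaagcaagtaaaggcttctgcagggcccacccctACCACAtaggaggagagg
Gzma: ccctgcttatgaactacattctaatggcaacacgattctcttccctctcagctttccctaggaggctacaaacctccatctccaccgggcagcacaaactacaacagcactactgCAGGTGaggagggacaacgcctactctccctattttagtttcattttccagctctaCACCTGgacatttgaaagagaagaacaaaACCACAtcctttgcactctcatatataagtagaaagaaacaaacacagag

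The ETS motif was found before the RefSeq starts of Cd79a, Cd3e, Nkg7 and Ptprc, against 29.5% of all 32817 RefSeq windows of that length. In Cd79a and Nkg7 its match lay past the point where annotated exons begin, so it is not in the printed stretch. Ptprc had a match in each of its windows. The E-box was found before Cd79a, Cd3g and Gzma (17.2% of windows) and the RUNX motif before Nkg7 and Gzma (14% of windows). The EBF motif and the octamer, held by 11.8% and 1.6% of windows, were matched before none of the 7, and none of the 5 motifs was matched before Cd8a. No match overlapped another. These are matches of letters, and no measurement of binding or of chromatin is among these data.

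Libraries rested on 21.8 to 27.59 M reads, depths that were inferred from the RPKM values because no read total was given. O-O libraries (22.84 to 24.21 M) all lay below O (YgWT) libraries (24.28 to 26.95 M) and Yg WT libraries (24.23 to 25.89 M), and overlapped O (Yg Het) libraries (21.8 to 27.59 M). Within groups they correlated at 0.9672 to 0.9915 across genes, and nothing in the labels says more of the replicates than that 5 animals were taken per condition. Albumin, the defining hepatocyte transcript, stood at 11144 to 52166 RPKM. Manf averaged 4.47 ± 1.11 RPKM in Yg Het livers and 15.3 ± 6.47 RPKM in Yg WT livers (SD, n = 5 each; exact two-sided permutation p = 0.00794). O-O liver 4 stood apart in the lymphocyte genes, with the highest value of all 25 livers in 8 of the 9. O-O liver 5 was among the 4 highest livers for all 9 genes, O (YgWT) liver 2 for 6 and Yg WT liver 2 for 5, while O (Yg Het) liver 4 was the lowest for 4. Differences are of log2(RPKM + 0.5), fitted with limma over all genes at once, ± SE, and p-values are limma's after Benjamini-Hochberg adjustment over all genes tested, with a threshold of 0.05. The added 0.5 shrinks the differences of genes below about 1 RPKM.

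All 9 genes were scarce. Of the 225 values (9 genes in 25 livers), 176 were under 1 RPKM, and 6 of the genes averaged under 1 RPKM over all livers. Cd3e was under 1 RPKM in all 25 livers. Ms4a1 and Cd3g reached 1 RPKM in 1 liver each, Cd8a in 3, Gzma in 4, Ptprc in 5 and Nkg7 in 6. By RPKM the B cell receptor chains were the most abundant, with Cd79a at 1 RPKM or more in 13 livers and Cd79b in 16. RPKM divides by the length of the gene model, so the order of the genes depends on that length too. Ptprc, with the longest model, had the most reads (113 to 1112 per liver). In O-O liver 4, 304 reads of Ms4a1 made 2.05 RPKM and 300 reads of Cd79a made 8.60 RPKM. The mean over all livers ranged from 0.128 RPKM for Cd3e to 1.49 RPKM for Cd79b. A single value was 0, that of Gzma in Yg WT liver 3, where 3 reads would have given 0.14 RPKM. The main fit took the 9372 genes that reached 1 RPKM in 5 or more livers, which include Cd79a, Cd79b, Nkg7 and Ptprc. The other 5 members were tested in the same model fitted to all 17838 genes.

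**Figure D1:**
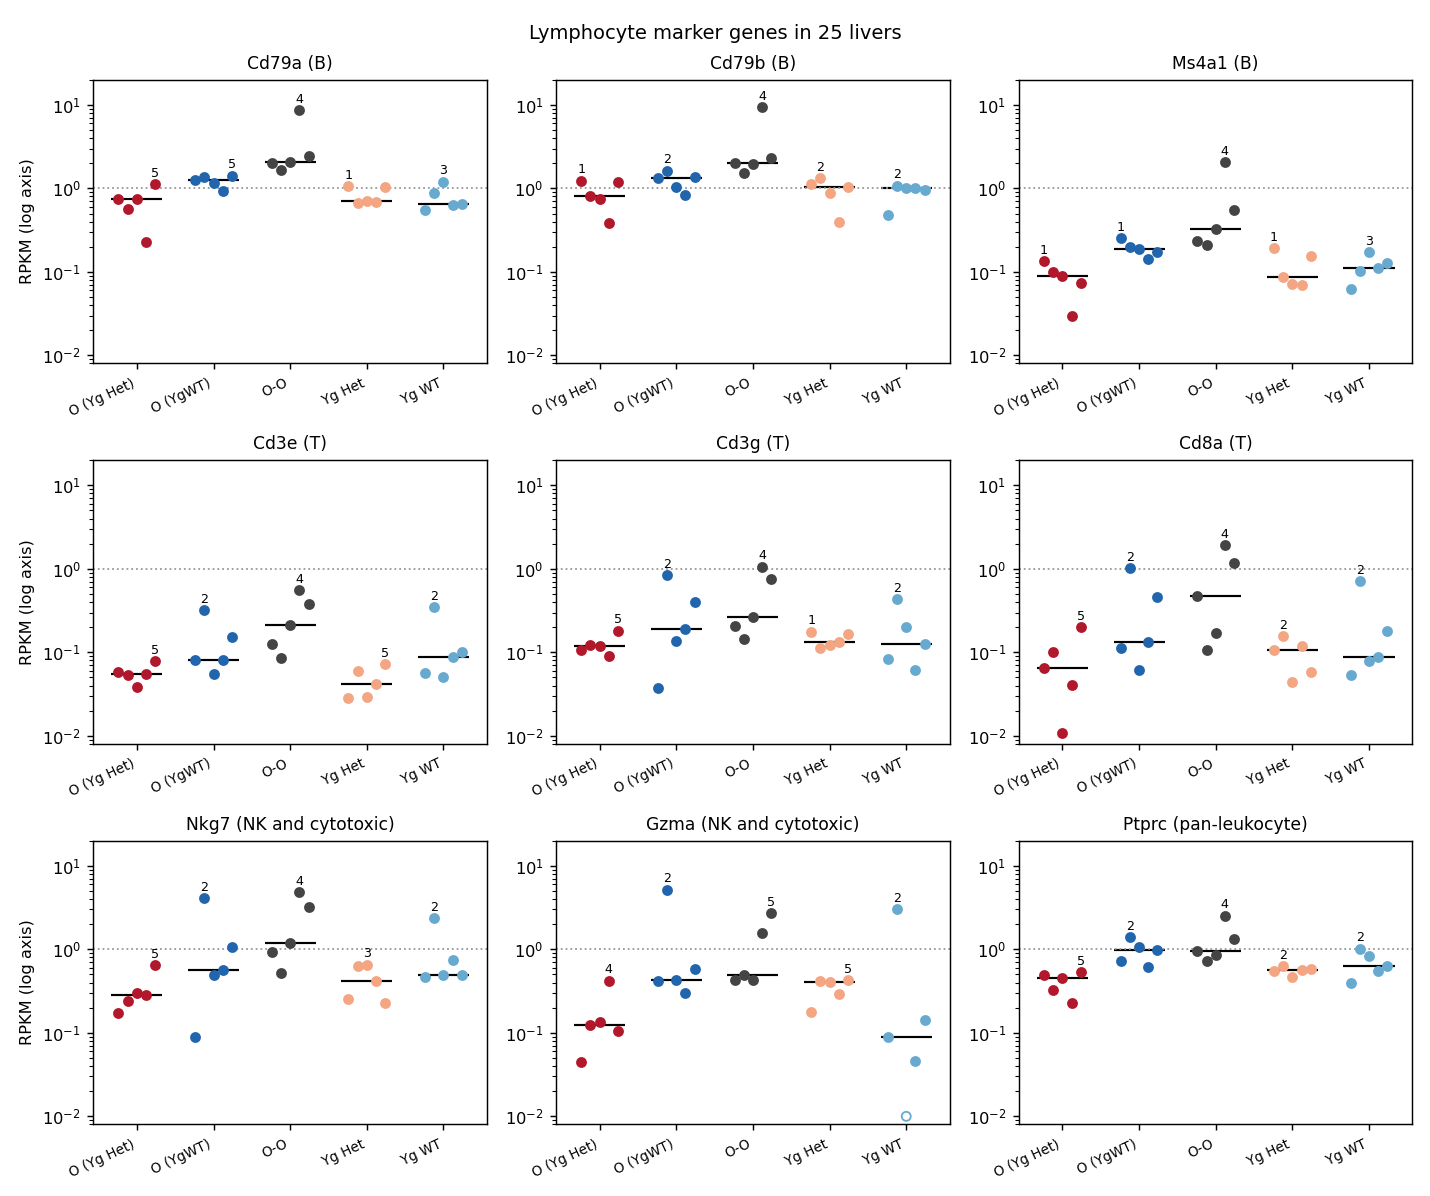
RPKM (log axis) of each gene in each of the 25 livers, by group, with a bar at the group's median and the replicate number of the highest liver above it. The dotted line is 1 RPKM and the open circle is a value of 0 drawn at the foot of the axis. O-O liver 4 is the highest liver of all for each gene except Gzma, and Cd3e stays under 1 RPKM in all livers.

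B cell genes were highest in old livers with an old partner. For Cd79a, O (Yg Het) livers 1 to 5 had 0.755, 0.572, 0.754, 0.229 and 1.13 RPKM, O (YgWT) livers 1.24, 1.37, 1.16, 0.942 and 1.43 RPKM, and O-O livers 2.01, 1.66, 2.10, 8.60 and 2.43 RPKM. In young livers Cd79a was at 1.06, 0.676, 0.712, 0.678 and 1.03 RPKM in Yg Het livers and at 0.557, 0.870, 1.21, 0.632 and 0.652 RPKM in Yg WT livers. Every O-O liver was thus above all 20 other livers, and the O (Yg Het), Yg Het and Yg WT livers overlapped. How many of all genes separate in that way was not counted. The 95% Poisson intervals of the nearest livers overlapped: O-O liver 2 (56 reads, 1.25 to 2.15 RPKM) and O (YgWT) liver 5 (53 reads, 1.07 to 1.87 RPKM). The value of O-O liver 4 rested on 300 reads (95% Poisson interval 7.66 to 9.63 RPKM) and that of O (Yg Het) liver 4 on 9 reads (0.105 to 0.434 RPKM). Such intervals cover counting error only.

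Cd79b, the partner chain, showed the same order of groups. It had 1.24, 0.811, 0.740, 0.388 and 1.19 RPKM in O (Yg Het) livers, 1.32, 1.63, 1.05, 0.830 and 1.37 RPKM in O (YgWT) livers and 1.99, 1.54, 1.96, 9.49 and 2.3 RPKM in O-O livers. Yg Het livers had 1.13, 1.32, 0.893, 0.390 and 1.05 RPKM, and Yg WT livers 0.486, 1.08, 0.999, 1.01 and 0.952 RPKM. All O-O livers but the second, at 1.54 RPKM, were above every other liver, since O (YgWT) liver 2 reached 1.63 RPKM. The ratio of Cd79a to Cd79b was 0.907 to 1.08 in O-O livers, 0.837 to 1.14 in O (YgWT) livers and 0.589 to 1.02 in O (Yg Het) livers, and it ranged most widely in Yg Het livers, from 0.512 to 1.74, where single values rested on as few as 13 reads.

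In RPKM, Ms4a1 was lower than the receptor chains in every liver. It had 0.133, 0.0996, 0.0888, 0.0299 and 0.0742 RPKM in O (Yg Het) livers, 0.253, 0.198, 0.189, 0.144 and 0.171 RPKM in O (YgWT) livers and 0.233, 0.209, 0.327, 2.05 and 0.552 RPKM in O-O livers. Yg Het livers had 0.0695 to 0.193 RPKM and Yg WT livers 0.0624 to 0.172 RPKM. All O-O livers lay above all O (Yg Het) livers, as for 10.7% of all genes, and above all Yg WT livers, as for 5.61%. They also lay above all Yg Het livers, for which the share of all genes was not counted. The lower end of the O-O livers overlapped the O (YgWT) livers. For all 3 B cell genes the group means ran, from high to low, O-O, O (YgWT), Yg Het, Yg WT and O (Yg Het). Of the neighbours in that order, O-O against O (YgWT) and Yg Het against Yg WT were tested by limma and did not pass; the others were not tested and overlapped.

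T cell genes were also scarce, and a few livers held their highest values. Cd3e ranged from 0.0385 to 0.0787 RPKM in O (Yg Het) livers, 0.0554 to 0.319 RPKM in O (YgWT) livers and 0.0846 to 0.553 RPKM in O-O livers, and from 0.0284 to 0.0718 RPKM in Yg Het livers and 0.0501 to 0.349 RPKM in Yg WT livers. The lowest of these values rested on 3 reads (0.00585 to 0.0830 RPKM). Cd3g ranged from 0.0906 to 0.182 RPKM in O (Yg Het) livers, 0.0378 to 0.843 RPKM in O (YgWT) livers and 0.145 to 1.06 RPKM in O-O livers, and from 0.113 to 0.177 RPKM in Yg Het livers and 0.0613 to 0.436 RPKM in Yg WT livers. For both CD3 genes the O (Yg Het) and Yg Het livers lay close together, and the O (YgWT), O-O and Yg WT groups each had 1 or 2 livers far above the rest.

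Cd8a showed that spread most clearly. It had 0.0648, 0.0997, 0.0108, 0.0407 and 0.202 RPKM in O (Yg Het) livers, 0.113, 1.02, 0.0621, 0.133 and 0.464 RPKM in O (YgWT) livers and 0.478, 0.107, 0.170, 1.93 and 1.18 RPKM in O-O livers. Yg Het livers had 0.106, 0.158, 0.0439, 0.118 and 0.0575 RPKM, and Yg WT livers 0.0531, 0.708, 0.0786, 0.0881 and 0.182 RPKM. O-O livers 4 and 5, O (YgWT) liver 2 and Yg WT liver 2 were the 4 highest of all, and the value of O (Yg Het) liver 3 was a single read.

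The cytotoxic genes were highest in the same 4 livers. Nkg7 had 0.172, 0.238, 0.30, 0.284 and 0.653 RPKM in O (Yg Het) livers, 0.0901, 4.14, 0.494, 0.568 and 1.07 RPKM in O (YgWT) livers and 0.928, 0.519, 1.18, 4.84 and 3.21 RPKM in O-O livers. Yg Het livers had 0.253, 0.629, 0.655, 0.423 and 0.229 RPKM, and Yg WT livers 0.465, 2.38, 0.492, 0.745 and 0.497 RPKM. No O (Yg Het) or Yg Het liver reached 1 RPKM, and every group overlapped every other. Gzma had 0.0448, 0.124, 0.134, 0.422 and 0.105 RPKM in O (Yg Het) livers, 0.422, 5.19, 0.429, 0.296 and 0.581 RPKM in O (YgWT) livers and 0.435, 0.491, 0.423, 1.57 and 2.69 RPKM in O-O livers. Yg Het livers had 0.176, 0.421, 0.409, 0.294 and 0.429 RPKM of Gzma, and Yg WT livers 0.0880, 3.02, 0, 0.0456 and 0.141 RPKM. Gzma was the one member whose highest liver, O (YgWT) liver 2 with 119 reads (4.30 to 6.21 RPKM), was not O-O liver 4. In Yg WT livers, 67 of the 73 Gzma reads came from liver 2, and without it the group averaged 0.0687 RPKM, against 0.659 RPKM with it.

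Relative to its group mean, Ptprc, which sums over leukocyte types, varied less than Cd8a, Nkg7 and Gzma in each group. In O (YgWT) and Yg WT livers it varied more than the B cell genes, and in O (Yg Het) livers more than Cd3e and Cd3g. It had 0.489, 0.327, 0.459, 0.228 and 0.534 RPKM in O (Yg Het) livers, 0.724, 1.41, 1.07, 0.616 and 0.981 RPKM in O (YgWT) livers and 0.966, 0.726, 0.846, 2.54 and 1.32 RPKM in O-O livers. Ptprc in Yg Het livers was at 0.557, 0.623, 0.471, 0.561 and 0.576 RPKM, and in Yg WT livers at 0.399, 1.02, 0.828, 0.551 and 0.627 RPKM. All O (Yg Het) livers lay below all O (YgWT) livers, as for 10.3% of all genes, and below all O-O livers, as for 10.7%. Its long gene model gave it 113 to 1112 reads per liver, so that its values were the best counted of the 9. For Ptprc, Cd3g, Cd8a and Nkg7 the group means ran, from high to low, O-O, O (YgWT), Yg WT, Yg Het and O (Yg Het). No neighbours in that order passed the test, and the neighbours overlapped. Cd3e differed in that its lowest mean was in Yg Het livers (0.0464 RPKM, against 0.0565 RPKM in O (Yg Het) livers), and Gzma in that O (YgWT) livers averaged 1.38 RPKM and O-O livers 1.12 RPKM.

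The B cell and T cell genes did not rise and fall together in every liver. The ratio of Cd3g to Cd79a had a median of 0.161 in O (Yg Het) livers, 0.205 in O (YgWT) livers, 0.123 in O-O livers, 0.167 in Yg Het livers and 0.166 in Yg WT livers. It reached 0.617 in O (YgWT) liver 2 and 0.501 in Yg WT liver 2, where the T and cytotoxic genes were high and Cd79a was at 1.37 and 0.870 RPKM, and it fell as low as 0.0304 in O (YgWT) liver 1, which had the lowest Cd3g and Nkg7 of all livers with 3 and 2 reads. In O-O liver 4, where all 9 genes were high, it was 0.123. O (YgWT) liver 2 and Yg WT liver 2 carry the same replicate number, but the labels do not say that a number marks a joined pair.

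**Figure D2:**
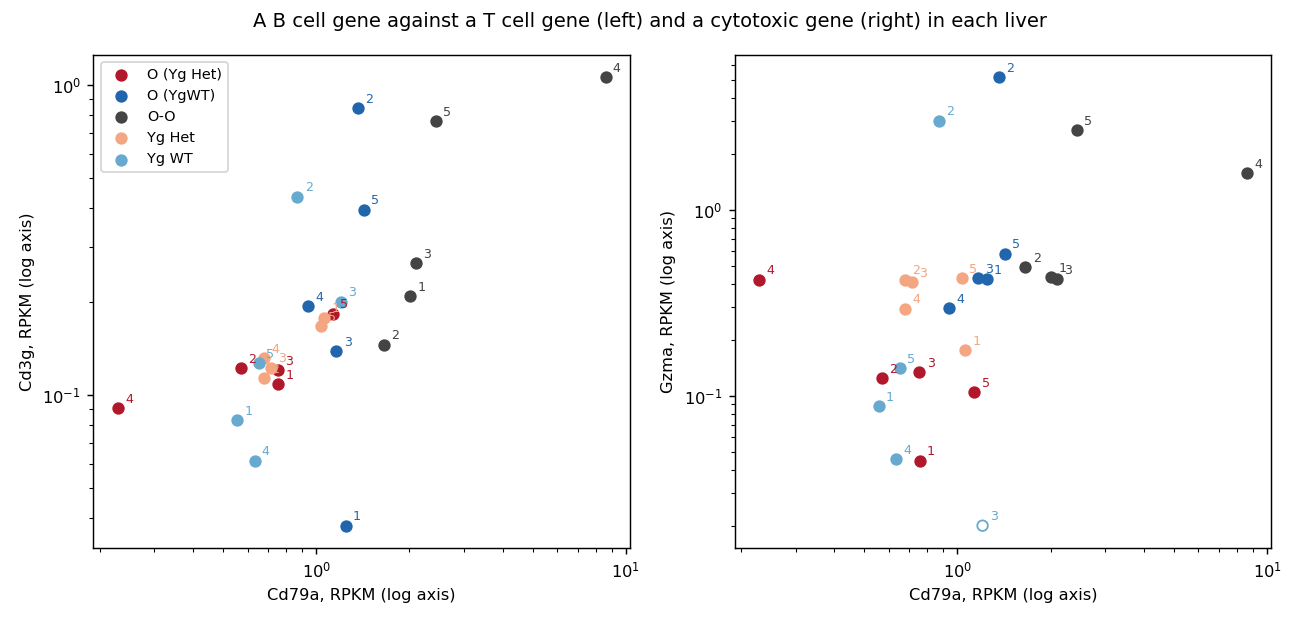
Cd3g (left) and Gzma (right) against Cd79a in each of the 25 livers, all in RPKM on log axes, coloured by group and numbered by replicate, with the value of 0 as an open circle at the foot. O-O liver 4 is far to the right, while O (YgWT) liver 2 and Yg WT liver 2 are high in Cd3g and Gzma at Cd79a of 1.37 and 0.870 RPKM.

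The comparison of O (Yg Het) with O-O livers asks how old liver differs between a young Manf-heterozygous and an old partner, and here the lymphocyte genes differed most. Cd79a averaged 0.689 ± 0.329 RPKM in O (Yg Het) livers and 3.36 ± 2.94 RPKM in O-O livers (log2 difference -1.51 ± 0.27, adjusted p = 0.00172). Cd79b averaged 0.872 ± 0.349 and 3.45 ± 3.38 RPKM in those groups (-1.27 ± 0.30, adjusted p = 0.0056), Nkg7 0.329 ± 0.187 and 2.14 ± 1.84 RPKM (-1.42 ± 0.45, adjusted p = 0.0253) and Ptprc 0.407 ± 0.126 and 1.28 ± 0.737 RPKM (-0.90 ± 0.19, adjusted p = 0.00337; SD, n = 5 each). All 4 members in the main fit were thus lower in O (Yg Het) livers. Lower calls were common there, at 22.7% of the 9372 genes tested (0.907% were higher). The median of all genes was itself at -0.14, and at -0.13 to -0.14 wherever O (Yg Het) livers were compared, while albumin averaged 42783 RPKM in O (Yg Het) livers and 25536 RPKM in O-O livers. After median-of-ratios scaling, which brings that median to 0.0061, Cd79a (-1.40), Cd79b (-1.16) and Ptprc (-0.81) still passed and Nkg7 did not (-1.33, adjusted p = 0.0572). The split of calls over all genes was then 331 higher and 604 lower, against 85 and 2126 before scaling.

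In the fit to all 17838 genes, where 18.6% were called lower and 0.477% higher, Ms4a1 (-0.82 ± 0.21, adjusted p = 0.0125), Cd3e (-0.43 ± 0.13, adjusted p = 0.0284) and Cd8a (-0.93 ± 0.32, adjusted p = 0.0442) fell too, which makes 7 of the 9. Cd3g (-0.57 ± 0.22, adjusted p = 0.0747) and Gzma (-1.11 ± 0.51, adjusted p = 0.131) did not pass. On the RPKM scale the ratio of O (Yg Het) to O-O medians was 0.271 for Ms4a1, 0.256 for Cd3e, 0.452 for Cd3g, 0.136 for Cd8a and 0.252 for Gzma. For 6 of the 9 members (Cd79a, Cd79b, Ms4a1, Cd3e, Gzma and Ptprc) every O (Yg Het) liver lay below every O-O liver, as did 10.7% of all genes. For Gzma the nearest livers were O (Yg Het) liver 4 (0.4217 RPKM, 10 reads) and O-O liver 3 (0.4234 RPKM, 9 reads). For Cd3e they were O (Yg Het) liver 5 (0.0787 RPKM, 7 reads) and O-O liver 2 (0.0846 RPKM, 8 reads). The gaps of these genes were smaller than the weight of 1 read. For Ms4a1, Cd3e and Gzma an exact two-sided permutation test of log2(RPKM + 0.5) gave p = 0.00794, which no split of 10 livers into 5 and 5 can undercut. Adjusted over the gene's 7 comparisons this was 0.0185 for Ms4a1 and 0.0556 for Cd3e and Gzma. For Cd8a it was 0.0317, or 0.222 adjusted.

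The calls on B cell genes and Ptprc did not rest on a single liver. Without O-O liver 4, O-O livers averaged 2.05 RPKM of Cd79a, 1.95 RPKM of Cd79b, 0.33 RPKM of Ms4a1 and 0.963 RPKM of Ptprc. The differences were then -1.14 (adjusted p = 0.00361), -0.87 (0.0113), -0.49 (0.00696) and -0.69 (0.0103), and all 4 passed with each of the 10 livers of the 2 groups left out in turn. The T cell and cytotoxic calls did rest on single livers. Nkg7 no longer passed without O-O liver 4 (-1.09, adjusted p = 0.0946), O-O liver 5 (0.0615), O (Yg Het) liver 1 (0.0501) or O (Yg Het) liver 4 (0.0567). Cd3e did not pass without O-O liver 4 (-0.31, adjusted p = 0.104), O-O liver 5 (0.0681), O (Yg Het) liver 3 (0.0559) or O (Yg Het) liver 4 (0.0626), nor after scaling (0.0594). Cd8a kept its call in 3 of the 10 omissions and lost it without O-O livers 1, 4 or 5 (adjusted p = 0.0559, 0.156 and 0.106) and without O (Yg Het) livers 1, 2, 3 or 4 (0.0722, 0.0693, 0.0863 and 0.0955), and after scaling (0.079). Cd3g passed without O-O liver 2 (-0.70, adjusted p = 0.0316). By limma-voom on the reads recovered, over genes with 10 reads in 5 livers, 9.85% of genes were called lower and 3.03% higher, and neither Nkg7 (adjusted p = 0.0678) nor Cd8a (0.0731) passed. Cd8a did not pass with weights per library (0.0566), and when only the 2 groups were fitted Ms4a1 (0.133), Cd3e (0.0957) and Cd8a (0.134) did not.

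**Figure D3:**
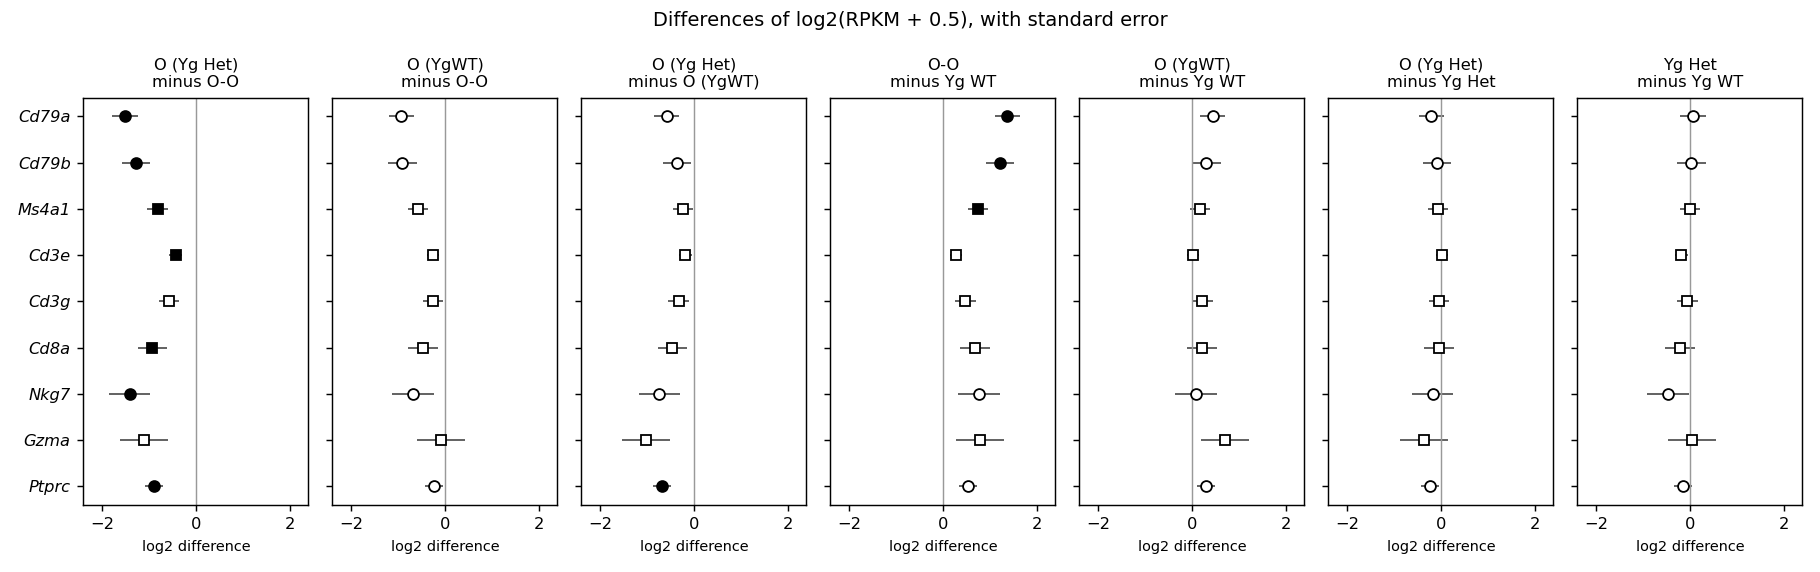
Difference of log2(RPKM + 0.5) with its standard error (x axis) for each gene (rows) in each of the 7 comparisons (panels). Filled symbols passed at an adjusted p under 0.05; circles are from the main fit and squares from the fit to all genes. The filled symbols are 7 genes in O (Yg Het) minus O-O, Ptprc in O (Yg Het) minus O (YgWT), and the 3 B cell genes in O-O minus Yg WT.

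Markers of other cells moved in the same comparison. Leaving the 9 genes out, 15 of 16 B cell genes with values fell in the fit to all genes, 9 of 28 T cell genes, 12 of 21 NK and cytotoxic genes, 18 of 22 genes of antigen receptor signalling, 19 of 20 pan-leukocyte genes and 3 of 8 plasma cell genes, and none rose. Of all genes in that fit, 18.6% were called lower and 0.477% higher. Of the B cell list, Cd37, a tetraspanin of mature B cells, averaged 0.629 ± 0.185 RPKM in O (Yg Het) livers and 2.10 ± 1.57 RPKM in O-O livers (main fit, -1.05 ± 0.22, adjusted p = 0.00329), and Cd72, an inhibitory co-receptor, 0.552 ± 0.164 and 1.31 ± 0.386 RPKM (-0.78 ± 0.16). The chemokine gene Ccl5 fell by 1.96 ± 0.63 on the log2 scale, with 1.01 ± 0.441 and 7.72 ± 7.62 RPKM, and the T cell kinase gene Zap70 by 0.49 ± 0.17, with 2.16 ± 0.44 and 3.30 ± 0.882 RPKM. Of the T cell list only Zap70 and Tcf7 were in the main fit. Tcf7 was not called, at 1.51 ± 0.364 and 1.71 ± 0.637 RPKM (0.04 without O-O liver 4, adjusted p = 0.857). Lymphocyte signalling genes Lcp2 (-1.13), Ptpn6 (-0.89) and Lyn (-0.43) fell as well, and Cd81, which most cells express, was at -0.14 (adjusted p = 0.213). Jchain, the joining chain of secreted antibodies, was at 2.48 ± 2.05 and 3.22 ± 1.89 RPKM (-0.46 ± 0.47, adjusted p = 0.48). When O-O liver 4 was left out, 10.6% of all genes were called lower in the fit to all genes, and the counts were 11 of 16 B cell genes, 4 of 28 T cell genes, 2 of 21 NK and cytotoxic genes, 13 of 22 genes of antigen receptor signalling, 15 of 20 pan-leukocyte genes and 3 of 8 plasma cell genes. Cd37 (-0.75, adjusted p = 0.00621), Cd72 (-0.67), Lcp2 (-0.89) and Ptpn6 (-0.66) then still passed, while Ccl5 (-1.52, adjusted p = 0.0984), Zap70 (-0.45, adjusted p = 0.0968) and Lyn (-0.27, adjusted p = 0.0929) did not.

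Cells that are not lymphocytes showed the same direction. In the fit to all genes, 10 of 14 Kupffer cell genes fell, 8 of 12 of monocytes and macrophages, 9 of 11 of dendritic cells, 9 of 10 of MHC class II presentation (which B cells share with dendritic cells and macrophages), 11 of 13 of sinusoidal endothelium and 10 of 13 of stellate cells and fibroblasts. Of all genes, 18.6% were called lower there. Neutrophil genes (3 of 12) and erythroid and platelet genes (2 of 10) lay near that share, and dividing cell genes (1 of 10) below it. In either direction, 0 of 7 cholangiocyte and 0 of 15 hepatocyte genes were called. The counts without O-O liver 4 were 9 of 14 Kupffer cell, 7 of 12 monocyte and macrophage, 6 of 11 dendritic cell, 8 of 10 MHC class II, 8 of 13 endothelial, 8 of 13 stellate cell and fibroblast and 0 of 12 neutrophil genes. Of all genes, 10.6% were then called lower. Over the Kupffer cell list the summed level was 86.0 to 239 RPKM in O (Yg Het) livers and 269 to 712 RPKM in O-O livers, and over the endothelial list 34.8 to 84.4 and 99.7 to 110 RPKM. The summed level of the 16 B cell genes was 2.16 to 5.11 RPKM in O (Yg Het) livers and 6.78 to 29.4 RPKM in O-O livers, that of the 28 T cell genes 5.30 to 6.55 and 6.15 to 26 RPKM, and that of the 21 NK and cytotoxic genes 2.33 to 4.41 and 5.33 to 34.5 RPKM. The part of these other cells, of hepatocyte transcripts and of the shift of all genes in the lymphocyte result was not tested. The heavy and light chain constant genes of antibodies and the constant genes of the T cell receptor (Ighm, Ighd, Igkc, Iglc2, Trac, Trbc1 and Trbc2) were not analysed here.

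**Figure D4:**
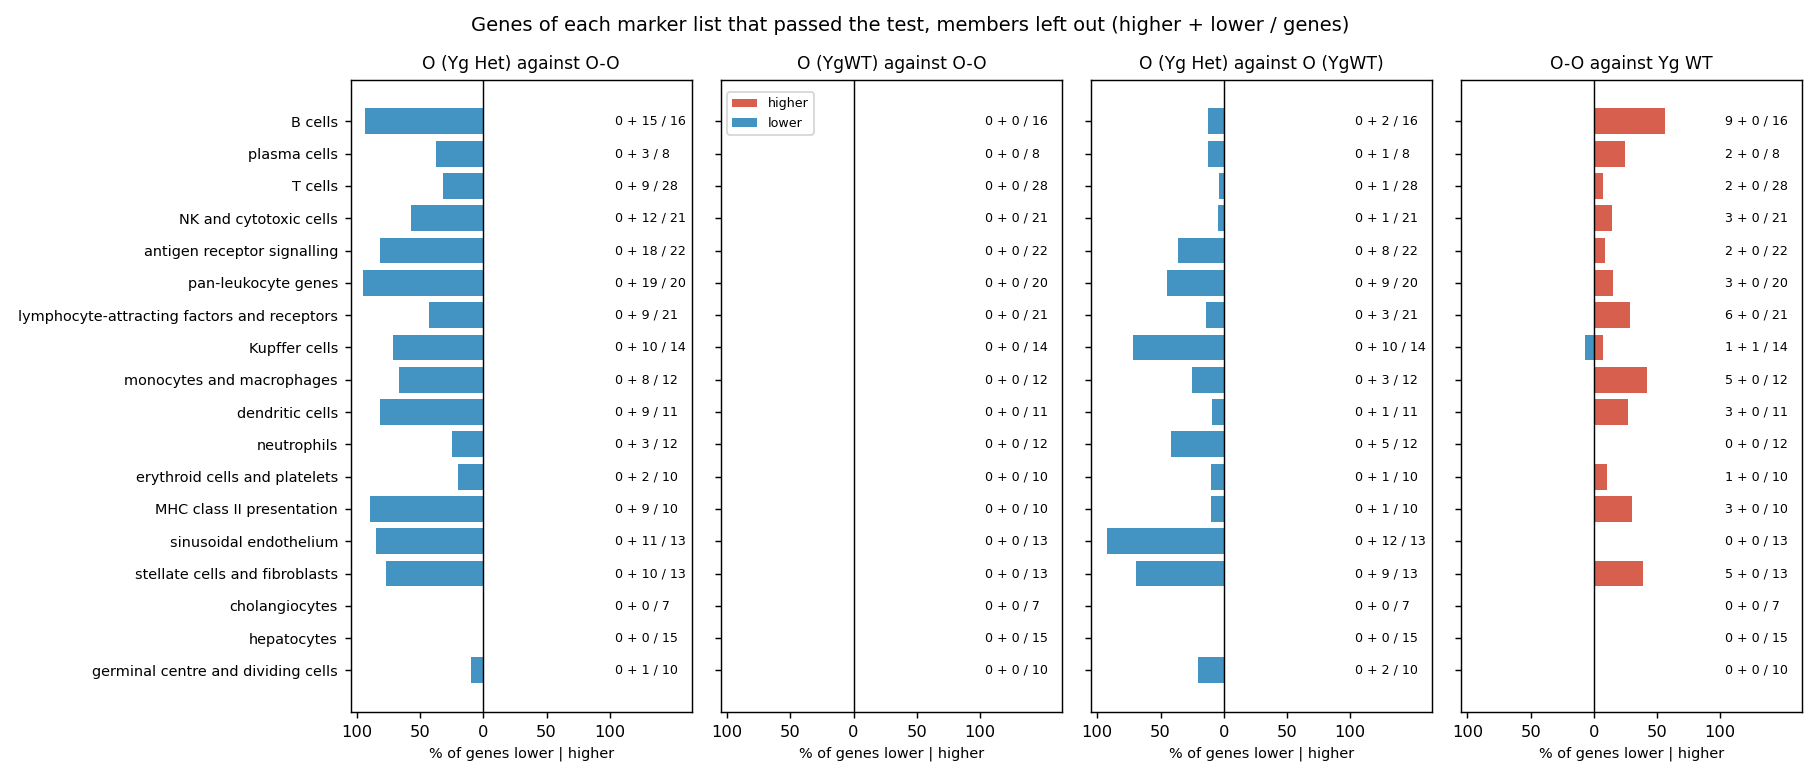
Share of the genes of each marker list (rows, members left out) called lower (left of 0) or higher (right of 0) in 4 comparisons (panels), in percent, from the fit to all genes; the numbers are higher plus lower over the genes with values. In O (Yg Het) against O-O, 15 of 16 B cell genes and 0 of 15 hepatocyte genes were lower, against 18.6% of all genes. In O-O against Yg WT, 9 of 16 B cell and 2 of 28 T cell genes were higher, against 6.42% of all genes.

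Between old livers with the 2 kinds of young partner, O (Yg Het) against O (YgWT), 1 member differed. Ptprc averaged 0.407 ± 0.126 RPKM in O (Yg Het) livers and 0.960 ± 0.311 RPKM in O (YgWT) livers (SD, n = 5 each; -0.67 ± 0.19, adjusted p = 0.0115), passed in all 10 omissions of a liver and passed after scaling (-0.59, adjusted p = 0.029). It was called where 29.6% of all tested genes were called lower and 3.07% higher (18.2% and 1.44% in the fit to all genes). Cd79a was at -0.58 ± 0.27 (adjusted p = 0.0988), Cd79b at -0.37 ± 0.30 and Nkg7 at -0.73 ± 0.45, and none passed. Ms4a1 was lower in every O (Yg Het) liver than in every O (YgWT) liver, as were 10.3% of all genes with values (exact permutation p = 0.00794, 0.0185 adjusted over its 7 comparisons), but at these low levels the limma difference was -0.24 ± 0.21 (adjusted p = 0.463). When only the 2 groups were fitted, Cd79a (adjusted p = 0.0398) and Ms4a1 (0.0264) passed, and Cd79a also with weights per library (0.0308). Gzma was at -1.02 ± 0.51 (adjusted p = 0.168), and at -0.50 without O (YgWT) liver 2, where Nkg7 was at -0.29. Other cells moved in this comparison too. In the fit to all genes, 10 of 14 Kupffer cell genes, 12 of 13 endothelial genes, 9 of 13 stellate cell and fibroblast genes and 9 of 20 pan-leukocyte genes other than Ptprc were lower in O (Yg Het) livers, against 2 of 16 B cell, 1 of 28 T cell and 1 of 21 NK and cytotoxic genes. The summed level of the Kupffer cell list was 86.0 to 239 RPKM in O (Yg Het) livers and 253 to 455 RPKM in O (YgWT) livers, and that of the endothelial list 34.8 to 84.4 and 94.2 to 116 RPKM. Their part in the Ptprc result was not tested. This comparison and the preceding one share the O (Yg Het) livers.

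Between O (YgWT) and O-O livers, which asks how old liver differs between a young WT and an old partner, none of the 4 members in the main fit passed, and 2 were at an unadjusted p under 0.05. Of the 9372 genes tested, 1496 were at such a p. By limma-voom on the reads recovered, none of the 9 passed, and 0.431% of genes were lower and 0.674% higher. Calls were few by limma over all genes, with 0.427% lower and 0.747% higher in the main fit and 0.129% and 0.14% in the fit to all genes. By the exact permutation test Ms4a1 gave p = 0.0317 (0.0444 adjusted over its 7 comparisons), with 0.191 ± 0.0403 RPKM in O (YgWT) livers and 0.675 ± 0.782 RPKM in O-O livers, but not by limma (-0.58 ± 0.21, adjusted p = 0.257). Cd79a averaged 1.23 ± 0.190 RPKM in O (YgWT) livers and 3.36 ± 2.94 RPKM in O-O livers (SD, n = 5 each), and every O (YgWT) liver lay below every O-O liver, as for 1.14% of genes (-0.93 ± 0.27, adjusted p = 0.0806). It passed without O-O liver 2 (-1.08, adjusted p = 0.0394) and was at -0.56 without O-O liver 4 (adjusted p = 0.157). Cd79b was at -0.91 ± 0.30 (adjusted p = 0.125), Nkg7 at -0.68 ± 0.45, Ptprc at -0.23 ± 0.19 and Gzma at -0.09 ± 0.51. Without O-O liver 4, Cd79b was at -0.50, Ms4a1 at -0.25, Nkg7 at -0.36, Ptprc at -0.013 and Gzma at 0.051, and none passed. Without O (YgWT) liver 2, Nkg7 was at -1.12 and Gzma at -0.61.

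The comparison of O-O with Yg WT livers sets old liver with an old partner against young WT liver with an old partner, and here B cell genes alone among the members were called. Cd79a averaged 3.36 ± 2.94 RPKM in O-O livers and 0.783 ± 0.263 RPKM in Yg WT livers (1.37 ± 0.27, adjusted p = 0.00411), and Cd79b 3.45 ± 3.38 and 0.905 ± 0.239 RPKM (1.22 ± 0.30, adjusted p = 0.0151; SD, n = 5 each). Of all tested genes, 9.11% were called higher and 1.74% lower. Both passed in all 10 omissions of a liver, at 1.00 and 0.81 without O-O liver 4. In the fit to all genes, where 6.42% were called higher and 0.88% lower, Ms4a1 rose as well, with 0.675 ± 0.782 RPKM in O-O livers and 0.115 ± 0.0397 RPKM in Yg WT livers (0.75 ± 0.21, adjusted p = 0.0389). The ratio of their medians was 2.97. Ms4a1 did not pass without Yg WT livers 1, 2, 3, 4 or 5 (adjusted p = 0.0769, 0.0694, 0.0651, 0.0648 and 0.0524) or without O-O liver 5 (0.0694), and passed without O-O liver 4 (0.42, adjusted p = 0.0177). When only the 2 groups were fitted, neither Cd79b (adjusted p = 0.0764) nor Ms4a1 (0.232) passed, and Ms4a1 did not with weights per library (0.0534) or with 1 in place of 0.5 added (0.0556). For the 3 B cell genes every O-O liver lay above every Yg WT liver, as for 5.61% of all genes.

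The other members did not pass in O-O against Yg WT livers, though each had the higher mean in O-O livers. Ptprc was at 0.53 ± 0.19 (adjusted p = 0.0741), passing without O-O liver 2 (adjusted p = 0.0326), and Nkg7 at 0.76 ± 0.45 (adjusted p = 0.264). Cd3e was at 0.28 ± 0.13, Cd3g at 0.47 ± 0.22, Cd8a at 0.68 ± 0.32 and Gzma at 0.79 ± 0.51, with adjusted p of 0.187 to 0.354. Without Yg WT liver 2 Gzma was at 1.32 (adjusted p = 0.0817). Outside the 9 genes, 9 of 16 B cell genes were higher in O-O livers, against 2 of 28 T cell genes, 3 of 21 NK and cytotoxic genes, 2 of 22 genes of antigen receptor signalling and 3 of 20 pan-leukocyte genes. In the fit to all genes, which gave these counts, 6.42% of all genes were called higher. Cd37 averaged 2.10 ± 1.57 RPKM in O-O livers and 0.767 ± 0.173 RPKM in Yg WT livers (0.88 ± 0.22), and Zap70 3.30 ± 0.882 and 1.31 ± 0.213 RPKM (1.05 ± 0.17). Cd72 (1.31 ± 0.386 and 0.823 ± 0.228 RPKM) and Tcf7 (1.71 ± 0.637 and 1.13 ± 0.124 RPKM) were not called in the main fit. Of the other cells, 5 of 12 monocyte and macrophage genes, 3 of 11 dendritic cell genes, 3 of 10 MHC class II genes and 5 of 13 stellate cell and fibroblast genes were higher, and 0 of 13 endothelial genes were called. Without O-O liver 4, where 2.53% of all genes were called higher, 8 of 16 B cell, 2 of 28 T cell, 1 of 21 NK and cytotoxic, 1 of 22 antigen receptor signalling and 1 of 20 pan-leukocyte genes were higher, and 3 of 12 monocyte and macrophage, 3 of 11 dendritic cell, 1 of 10 MHC class II and 1 of 13 stellate cell and fibroblast genes. Cd37 (0.58, adjusted p = 0.0301) and Zap70 (1.00, adjusted p = 0.00585) still passed. The part of the other cells in the B cell result was not tested.

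By limma no member was called between old livers and young livers of the same kind of pair, or between the young groups. None of the 4 members in the main fit passed between O (YgWT) and Yg WT livers, where 0.117% of genes were called higher and 0% lower. None passed between O (Yg Het) and Yg Het livers (0.907% higher, 4.64% lower), and none between Yg Het and Yg WT livers (3.72% higher, 1.41% lower). None of the 9 was at an unadjusted p under 0.05 in these 3 comparisons, by limma, and none passed by limma-voom. At such a p by limma were 1187, 2837 and 2038 of the 9372 genes in the main fit. In the fit to all 17838 genes they were 2004, 3594 and 2574. In the order given, limma on all genes called 0.207%, 0.325% and 1.14% higher and 0.0224%, 0.975% and 0.426% lower, and limma-voom called 0.149%, 0.69% and 1.44% higher and 0.0392%, 0.0941% and 1.63% lower. By the exact permutation test, Ms4a1 was higher in O (YgWT) than in Yg WT livers (0.191 ± 0.0403 and 0.115 ± 0.0397 RPKM, SD, n = 5 each; p = 0.0238, 0.0417 adjusted over its 7 comparisons), against a limma difference of 0.17 ± 0.21. Cd79a was at 0.44 ± 0.27 for O (YgWT) minus Yg WT, -0.20 ± 0.27 for O (Yg Het) minus Yg Het and 0.06 ± 0.27 for Yg Het minus Yg WT, and Ptprc at 0.30 ± 0.19, -0.23 ± 0.19 and -0.14 ± 0.19. For Gzma the standard error was 0.51, so that only large differences could have been called. The difference between the first 2 of these comparisons, the interaction of age with the kind of pair, was -0.64 ± 0.38 for Cd79a (adjusted p = 0.228), -0.53 ± 0.27 for Ptprc (0.175) and -1.07 ± 0.73 for Gzma (0.389). None of the 9 passed in it (Ptprc had the lowest unadjusted p, 0.062), and 0.0107% of tested genes did, all lower (0% were higher; 0.0336% lower in the fit to all genes).

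Genes whose levels were most like those of the members were sought among the tested genes, by Pearson's r over the 25 livers after the mean of each group was taken away. Like the mean of Cd79a and Cd79b were Cd37 (r = 0.927), Cfp, which encodes the complement regulator properdin (0.916), the gene of the cytoplasmic tyrosine kinase Syk (0.911) and the actin-capping gene Capg (0.91), followed by Grk2, Arrb2, Lsp1 and Arhgdib. Without O-O liver 4 these 8 lay at 0.750 to 0.836. Like Nkg7 were Ccl5 (0.928), Cd7, the interferon-induced GTPase gene Gbp2 (0.864), Cd274, which encodes PD-L1 (0.852), Gbp8, the chemokine gene Cxcl9 (0.832), Gbp9 and Gbp10, at 0.796 to 0.916 without that liver. Like Ptprc were Cd52 (0.972), the actin regulator gene Coro1a (0.969), the adaptor gene Fyb, the integrin gene Itgb2 (0.968), Rac2, Cyth4, Cd48 and Arhgap9, at 0.937 to 0.960 without it. The points share their libraries, and these values are a description of the 25 livers. Ccl5 averaged 1.01 ± 0.441 RPKM in O (Yg Het) livers, 4.37 ± 6.77 RPKM in O (YgWT) livers, 7.72 ± 7.62 RPKM in O-O livers, 1.09 ± 0.352 RPKM in Yg Het livers and 2.24 ± 3.14 RPKM in Yg WT livers.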

How the data were processed

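RNA of 25 livers was measured. Per the labels, RNA was extracted from flash frozen tissue with Trizol and libraries were made with the TruSeq Stranded mRNA LT kit. Per the submitters' processing notes, STAR 2.4.2a, HTSeq and mm10 were used. The deposited values are RPKM made by the authors. The read total behind the scaling and the strand setting of the counting are not given in the sources used here. Of 60354 rows in the deposited table, 24132 held values, of which 6272 were 0 in every liver, 1 was infinite and 21 bore a date number in place of a symbol, and 17838 were analysed.

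Whole reads were recovered for all 17838 genes, within 0.02 reads, from the spacing of values up to 0.3 RPKM. This gave 14.48 to 18.62 M reads on genes per liver, the library depths and the Poisson intervals in the text. Exon lengths of GENCODE M21 set the absolute scale, and at those lengths the reads of 14320 genes were whole. The 9372 genes that reached 1 RPKM in 5 or more livers were fitted as log2(RPKM + 0.5) with limma 3.58.1 (R 4.3.3), with a trend, in 1 model of the 5 groups (20 residual degrees of freedom) and 7 comparisons. Members outside the filter were fitted with all 17838 genes, and also compared by exact two-sided permutation over the 252 splits of 5 against 5 livers, adjusted over 7 comparisons. The main fit to the 9372 genes was tested on simulated data. The fit to all genes and limma-voom were not.

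The members, lists and tests were chosen with earlier results of these data known. From each of 18 marker lists up to 4 tested genes with the highest mean were eligible to be named, and the text names a part of them; the 8 genes most like each class were named. Alternatives were another constant (0.1 or 1), other filters, median-of-ratios scaling, weights per library, a block for the replicate number, a fit of only the groups compared, limma-voom on recovered reads and each liver left out. Limma-voom on genes with 10 reads in at least 5 livers was added after the data were seen, as were counts of marker lists without O-O liver 4. Python 3.11.15, numpy 2.4.6, pandas 2.3.3, scipy 1.17.1 and matplotlib 3.10.9 were used.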

Additional observations from a re-analysis of the deposited data

Results flagged for a closer look

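In 12 of the 45 sets of 5 livers (9 genes in 5 groups), a single liver lay far from its group by Dixon's criterion, a gap to the nearest other liver of over 0.71 of the group's range. Chance alone marks about 1 set in 20 where values are normally distributed, which was not tested for these low RPKM. The sets also share livers, so the 12 are not separate events.

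O-O liver 4 was high for the 3 B cell genes, with 8.60 RPKM of Cd79a, 9.49 RPKM of Cd79b and 2.05 RPKM of Ms4a1. Yg WT liver 2 was high for T cell and cytotoxic genes, with 0.349 RPKM of Cd3e, 0.708 RPKM of Cd8a, 2.38 RPKM of Nkg7 and 3.02 RPKM of Gzma. O (YgWT) liver 2 was high for the cytotoxic genes, with 4.14 RPKM of Nkg7 and 5.19 RPKM of Gzma.

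The other marked livers were O (Yg Het) liver 5 for Nkg7 (0.653 RPKM, 13 reads), O (Yg Het) liver 4 for Gzma (0.422 RPKM, 10 reads) and Yg WT liver 1 for Cd79b, which was low (0.486 RPKM, 18 reads).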

How the results depend on the processing

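Of the values for single members (without those that leave out a liver), 10 changed sign, all of uncalled differences. For Yg Het minus Yg WT, Cd79b (0.03) was at -0.0062 after median-of-ratios scaling, -0.12 with weights per library and -0.019 and -0.017 by limma-voom under the main and the 10-read filter, and Gzma (0.04) was at -0.053 with a constant of 1. For O (YgWT) minus Yg WT, Cd3e (0.03) was at -0.0052 with weights, and Nkg7 (0.08) at -0.031 with a constant of 0.1, -0.0017 with weights and -0.18 by limma-voom under either filter. The cause was not tested. No result for members could be had with genes of a mean of at least 5 RPKM, since none of the 9 is among them.

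With single livers left out, 13 differences, none of them called, took both signs. For Yg Het minus Yg WT these ranged from -0.00034 to 0.17 for Cd79a, -0.0902 to 0.20 for Cd79b, -0.0456 to 0.031 for Ms4a1, -0.12 to 0.0602 for Cd3g and -0.14 to 0.57 for Gzma. For O (YgWT) minus Yg WT they ranged from -0.068 to 0.14 for Cd3e, -0.025 to 0.41 for Cd8a and -0.36 to 0.38 for Nkg7. For O (Yg Het) minus Yg Het they ranged from -0.26 to 0.059 for Cd79b and -0.11 to 0.0084 for Cd8a. Gzma in O (YgWT) minus O-O ranged from -0.61 to 0.207, and in the interaction Cd3e ranged from -0.11 to 0.095 and Nkg7 from -0.56 to 0.18.

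Of the 4 members in the main fit, 3 to 4 were called in O (Yg Het) against O-O with single livers left out, 0 to 1 in O (YgWT) against O-O and 2 to 3 in O-O against Yg WT. It was 1 throughout in O (Yg Het) against O (YgWT) and 0 throughout in the other comparisons and the interaction. Fitting only the groups compared gave 2 in O (Yg Het) against O (YgWT), as did weights per library, and 1 in O-O against Yg WT. By limma-voom on genes with 10 reads, 5 of the 9 were called in O (Yg Het) against O-O, where 9.85% of genes were called lower and 3.03% higher. Of all tested genes, the main fit called 22.7% lower in O (Yg Het) against O-O and 29.6% lower in O (Yg Het) against O (YgWT). It called 0.427% lower in O (YgWT) against O-O and 9.11% higher in O-O against Yg WT.

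Counts of called genes over all genes tested moved more. For O (YgWT) against O-O the 110 became 175 after scaling, 317 with weights, 48 without a filter, 192 by limma-voom and 12 to 231 with livers left out. For O (Yg Het) against O-O the 2211 became 935 after scaling, 1415 with only the groups compared, 3402 without a filter, 718 with a mean of at least 5 RPKM, 898 by limma-voom and 1215 to 2793 with livers left out. For O (Yg Het) against O (YgWT) the 3065 became 1730 after scaling (837 higher and 893 lower, against 288 and 2777), 1295 with a mean of at least 5 RPKM, 1704 by limma-voom and 1957 to 3486. For Yg Het against Yg WT the 481 became 1122 with weights, 173 with only the groups compared, 279 without a filter and 140 to 829, and scaling split them into 215 higher and 234 lower, against 349 and 132. For O (YgWT) against Yg WT the 11 became 5 after scaling (4 higher and 1 lower, against 11 and 0), 58 with weights, 4 with only the groups compared, 41 without a filter, 4 with a mean of at least 5 RPKM, 5 by limma-voom (24 with 10 reads) and 4 to 28. For O (Yg Het) against Yg Het the 520 became 101 after scaling (84 higher and 17 lower, against 85 and 435), 1976 with weights, 99 with only the groups compared, 232 without a filter, 83 by limma-voom (100 with 10 reads) and 18 to 1508. For O-O against Yg WT the 1017 became 473 with only the groups compared, 464 with a mean of at least 5 RPKM and 411 to 1332, and scaling split them into 383 higher and 388 lower, against 854 and 163. In the interaction the 1 became 0 after scaling, with only the groups compared and by limma-voom under either filter, 2036 with weights, 6 without a filter and 0 to 1234.

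With the replicate number as a block, called genes numbered 7 in O (YgWT) against Yg WT, 188 in O (Yg Het) against Yg Het and 3 in the interaction, and of the calls on members only Ms4a1 in O-O against Yg WT was lost (adjusted p = 0.0569). Numbers were taken to pair livers only where every same-numbered pair had a correlation of deviations over 0.1, and no comparison met this. O (YgWT) and Yg WT livers came closest: all 5 correlations were positive, 0.0766 to 0.274, with 4 over 0.1 and 3 livers closest to their own number. Single values rested on 0 to 119 reads for Gzma, 1 to 168 for Cd8a, 2 to 106 for Nkg7 and 3 to 54 for Cd3e, so that counting error is large for them.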

Other observations

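Of 21 genes that attract or hold lymphocytes, 9 were lower in O (Yg Het) than in O-O livers in the fit to all genes, where 18.6% of all genes were, and 8 without O-O liver 4 (10.6% of all genes). In O-O against Yg WT livers 6 were higher (6.42% of all genes), and 2 without O-O liver 4 (2.53%). In O (Yg Het) against O (YgWT) livers 3 were lower, where 18.2% of all genes were. In the main fit S1pr1, a receptor that guides lymphocytes out of tissue and is also expressed by endothelium, averaged 5.16 ± 0.99 RPKM in O (Yg Het) livers and 7.47 ± 1.17 RPKM in O-O livers (SD, n = 5 each; log2 difference -0.50 ± 0.13, limma adjusted p = 0.0106). Cxcl12, a chemokine of stromal cells, was at 37.5 ± 2.64 and 37.8 ± 2.11 RPKM in those groups (-0.01 ± 0.11). Cxcl13, which attracts B cells, was at 1.06 ± 0.795 and 6.38 ± 9.17 RPKM and did not pass (-1.35 ± 0.68, adjusted p = 0.144; -0.68 without O-O liver 4). Cxcl9, which attracts T cells, averaged 2.34 ± 0.327 and 11.08 ± 10.50 RPKM and did not pass either (-1.56 ± 0.57, adjusted p = 0.0504; -1.12 without that liver).

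MHC class II genes, shared by B cells, dendritic cells and macrophages, were lower in the same comparison. Of 10 such genes, 9 were lower in O (Yg Het) than in O-O livers in the fit to all genes, where 18.6% of all genes were. Without O-O liver 4 the count was 8 (10.6% of all genes). In O-O against Yg WT livers 3 were higher (6.42% of all genes), and 1 without O-O liver 4 (2.53%). Cd74, the invariant chain, averaged 29.9 ± 12.4 RPKM in O (Yg Het) livers and 126 ± 116 RPKM in O-O livers (-1.81 ± 0.43, adjusted p = 0.00531), and H2-Aa 9.70 ± 4.19 and 44.7 ± 41.6 RPKM (-1.90 ± 0.45). Without O-O liver 4, O-O livers averaged 75.6 ± 24.7 RPKM of Cd74 and 26.4 ± 8.42 RPKM of H2-Aa (n = 4), and both still passed (-1.38, adjusted p = 0.0197, and -1.46, adjusted p = 0.0204). The summed level was 33.4 to 108 RPKM in O (Yg Het) livers and 133 to 726 RPKM in O-O livers, of which O-O liver 4 was the highest and the next reached 257 RPKM.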
